A study of Sus scrofa with 33 samples.

Results

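Leukocytes that sit in or pass through an organ leave their RNA in a bulk extract of it. The genes described here were 10 leukocyte markers measured in the pituitary of growing pigs. PTPRC, CORO1A and CXCR4 mark white blood cells in general, CD3E and CD3D mark T cells, CD79A and CD79B mark B cells, NKG7 and GNLY mark cytotoxic lymphocytes and natural killer cells, and LYZ marks myeloid cells. The members were all probes whose gene name in the array design, or gene symbol in the probe description, was one of these symbols. This gave 21 of the 60305 probes on the array, of which 18, for 9 genes, were among the 45667 probes of the deposited log2 values. Of these 21 probes, 20 carried the symbol itself, and the probe of GNLY was reached through its synonym NKL (NK-lysin, the porcine counterpart of granulysin). All 3 probes of CD3D were outside the deposited values and were read from the scanner files.

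The 33 arrays each held RNA of 1 castrated male pig. The pigs were Large White (LW), Creole (CR) or a cross of both breeds (F1), and were slaughtered either at a thermoneutral temperature (TN) or after heat exposure (HS). There were 5 LW TN, 6 LW HS, 5 CR TN, 6 CR HS, 6 F1 TN and 5 F1 HS arrays. All pigs had been kept at 24 °C in the climatic room, and the HS pigs were then exposed for up to 5 days to heat given as 30 °C in the sample labels and as 32 °C in the description of the series. The labels gave no age, and since slaughter of the TN pigs preceded the rise in temperature, temperature cannot be told apart from slaughter day and from the older age of the HS pigs. In the methods the pigs formed blocks of littermates, and a pen held pigs of the same breed, each from a different block. The labels do not identify litters or pens, so p-values treat the arrays as independent animals. Each litter and each pen belonged to a single breed, so breed cannot be told apart from litter and pen. The p-values of the breed comparisons may therefore be too small.

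Leukocyte common antigen, the product of PTPRC, is a membrane phosphatase present on nearly all nucleated blood cells, and coronin 1A is an actin-binding protein of the leukocyte cortex. CD3 chains carry the signal of the T-cell receptor, and CD79A and CD79B form the signalling pair of the B-cell receptor. The anterior pituitary is an endocrine gland with a dense bed of sinusoids and a resident population of macrophages and dendritic cells, and in bulk RNA its leukocyte transcripts come from both the tissue and the blood in its vessels. In such an extract a change in the number of cells of one type and a change in RNA per cell cannot be told apart.

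Between 73.5% and 82.2% of the spots were well above background on each array. Markers of the labelled tissue were present: 11 of 12 anterior pituitary genes had a probe in the deposited values, and GH1, PRL, POMC and CGA were well above background on 33 of 33 arrays. Transcripts of the neural lobe, AVP and OXT, were also well above background on all 33. TSHB, which encodes the beta chain of thyrotropin, was far lower on the arrays LW TN 2 (8.55) and CR TN 1 (10.57) than its median of 15.48 over the 16 TN arrays. The means over all arrays were 16.98 for AVP and 15.66 for OXT, against 14.92 for TSHB and 19.02 for GH1. The methods name the anterior lobe as the part sampled, and the share of neural-lobe RNA was not tested. The array LW HS 3 was Large White by its title and Creole by its breed field, and is treated as Large White here. The arrays lay on 5 slides, which was the only batch the files gave.

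Detection differed within each lineage. All probes of PTPRC, CORO1A, CXCR4, CD79A, CD79B, NKG7 and GNLY were well above background on 33 of 33 arrays, as were 3 of the 4 LYZ probes, the other being so on 32. The CD3E probes were well above background on 31 and 22 arrays. For CD3D, probe A_72_P014531 was well above background on 32 arrays, A_72_P504254 on 1 and A_72_P185936 on 0. Several genes that define the same cells were near the detection limit, with CD4 and CD8B well above background on at most 1 array, CR2 on 0, PRF1 on 1 and GZMA on 2. MS4A1 (CD20) was well above background on 26 arrays but had no probe in the deposited values. Other genes of these cells were well above background on 33 of 33 arrays. They included CD247, CD5, CD8A and LCK of T cells, BLK, CD72 and POU2AF1 of B cells, and GZMB of cytotoxic cells. At their brightest probes CD5, LCK and CD247 had mean log2 values of 11.93, 12.14 and 10.57, against 5.84 for CD3E and 6.05 for CD8A. Whether these bright probes measure lymphocyte transcripts was not tested.

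The probe sequences are shown for the members whose values turn on what the probe holds. PTPRC had 3 probes, printed 5′ to 3′ from the scanner files, and the capitals in the first mark its run of alternating G and T.
PTPRC A_72_P186806: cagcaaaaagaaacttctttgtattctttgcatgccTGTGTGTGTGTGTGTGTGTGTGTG
PTPRC A_72_P442513: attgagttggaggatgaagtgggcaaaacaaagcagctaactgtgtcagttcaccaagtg
PTPRC O10712: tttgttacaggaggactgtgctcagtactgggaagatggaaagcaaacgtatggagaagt
The run spanned 24 of the 60 bases of A_72_P186806. A stretch of 12 bases of such a run (GTGTGTGTGTGT, searched on both strands) was held by 0.208% of the 45667 probes of the deposited values and by 1 of the 21 member probes.

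Probes of one gene could also overlap. The pairs below are shown with the longest run they share in capitals, because values of overlapping probes are not separate measurements of a gene.
CD3E A_72_P165731: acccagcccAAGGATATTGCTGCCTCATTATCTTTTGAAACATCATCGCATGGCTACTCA
CD3E O2506: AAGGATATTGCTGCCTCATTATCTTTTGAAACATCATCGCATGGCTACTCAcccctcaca
LYZ A_72_P721793: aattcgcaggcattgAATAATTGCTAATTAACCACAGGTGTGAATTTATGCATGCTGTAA
LYZ A_72_P737919: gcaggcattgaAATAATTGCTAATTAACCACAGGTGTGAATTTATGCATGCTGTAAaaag
The CD3E probes shared 51 bases and these LYZ probes 45. By contrast, the longest run common to both CD79A probes, printed in lower case below, was 5 bases.
CD79A A_72_P070401: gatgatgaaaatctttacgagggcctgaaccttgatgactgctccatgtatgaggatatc
CD79A O4144: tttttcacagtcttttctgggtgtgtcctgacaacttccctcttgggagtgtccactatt
The single probes of CD79B, NKG7 and GNLY, on which every value of these genes rests, were as follows.
CD79B O7239: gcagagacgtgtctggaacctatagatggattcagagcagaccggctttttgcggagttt
NKG7 A_72_P210427: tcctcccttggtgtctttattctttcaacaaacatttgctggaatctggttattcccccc
GNLY A_72_P306154: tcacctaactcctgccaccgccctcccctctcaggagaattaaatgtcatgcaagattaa

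**Figure D1:**
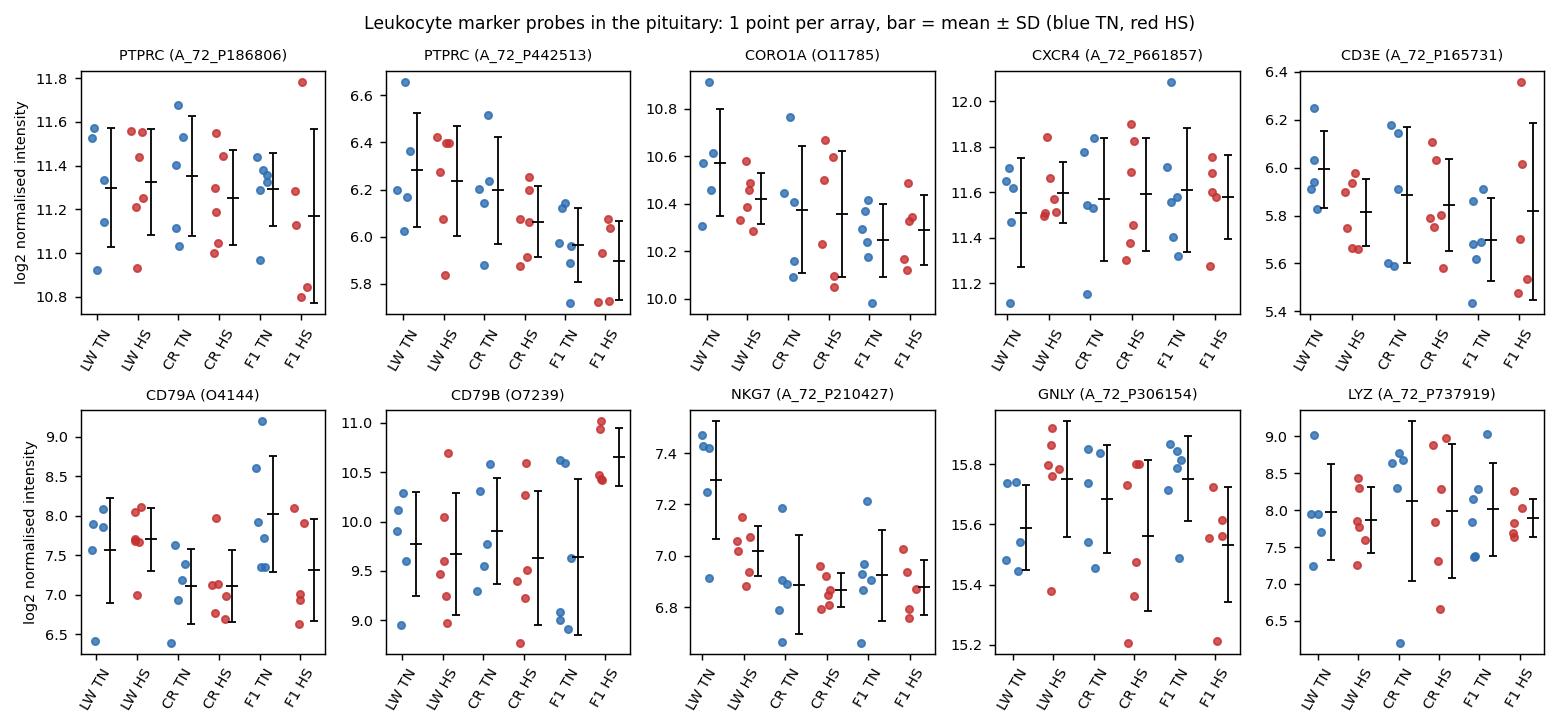
Log2 normalised intensity (vertical axis) of the brightest probe of each of the 9 genes and of a second PTPRC probe in the 6 groups, with 1 point per array, blue for TN and red for HS, and the mean ± SD beside the points. NKG7 was highest in LW TN (7.29 ± 0.23), the F1 HS arrays of CD79B lay between 10.42 and 11.02, and CD79A and LYZ spread over more than 2 log2 units between animals.

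The first question was whether heat changed the leukocyte transcripts of the gland. With the HS and TN arrays compared over all breeds (limma, 17 against 16 arrays, breed in the model, Benjamini-Hochberg adjustment over 45667 probes), 0 of the 18 member probes passed an adjusted p of 0.05, and 0 had an unadjusted p under 0.05. Of all probes, 0.0219% passed. The fitted log2 differences of the members, HS minus TN, ran from -0.23 to 0.21 with a median of -0.05, against a median of 0.01 over all probes, and the smallest adjusted p was 0.579.

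That smallest value belonged to NKG7, a membrane protein of cytotoxic granules, which was 0.11 ± 0.06 (SE) log2 units lower in HS and lay below the TN mean of its own breed on 13 of 17 HS arrays. The T-cell receptor chain CD3E differed by -0.03 ± 0.08 and -0.02 ± 0.07 at its probes. CORO1A differed by -0.04 ± 0.07 and the chemokine receptor CXCR4 by 0.03 ± 0.08 to 0.08 ± 0.08 over its 3 probes. These standard errors give the precision of each estimate. A shift had to be several standard errors in size to pass the adjustment over all probes, so smaller shifts are not excluded. The standard errors were wider for the members that varied most between animals. CD79B differed by 0.21 ± 0.22, and the 4 LYZ probes by -0.15 ± 0.23 to -0.04 ± 0.16. CD3D, from scanner intensities normalised here, differed by -0.02 ± 0.11 at A_72_P014531 (adjusted p = 0.980).

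One red-cell gene was called under heat. HBB, the beta chain of haemoglobin and a marker of red cells, fell by 1.15 ± 0.21 log2 units in HS (limma, adjusted p = 0.0301), from 10.40 ± 0.64 (SD, n = 16) to 9.30 ± 0.72 (n = 17). It was the one gene called among the 8 erythroid and platelet genes of the list, whose median difference was -0.05. After the group means were subtracted, HBB and the member probes had r between -0.12 and 0.31 over the 33 arrays. The part of vascular blood in the leukocyte values was not tested.

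Other leukocyte genes did not pass under heat either. None of 14 pan-leukocyte, 7 T-cell, 8 B-cell, 12 cytotoxic, 20 myeloid and 10 recruitment genes in the deposited values, each read at its brightest probe, was called in HS against TN. Negative values outnumbered positive ones among pan-leukocyte genes (12 of 14, median -0.06), cytotoxic genes (10 of 12, median -0.06), myeloid genes (16 of 20, median -0.11) and chemokine and adhesion genes (9 of 10, median -0.14), but not among T-cell (3 of 7, median 0.03) or B-cell genes (4 of 8, median 0.01). They did so too among endothelial genes (6 of 6, median -0.18) and erythroid and platelet genes (8 of 8). Genes of one extract share its composition, these counts carry no test, and the part of vessel content in the leukocyte values was not tested. The genes with the smallest p were ITGB2, a leukocyte integrin chain (-0.25 ± 0.09, adjusted p = 0.361), CD163, the haemoglobin scavenger receptor of macrophages (-0.43 ± 0.13, adjusted p = 0.240), and ICAM1, the vessel-wall ligand of that integrin (-0.26 ± 0.08, adjusted p = 0.224). In the T-cell list it was CD247 (0.13 ± 0.07, adjusted p = 0.593) and in the B-cell list CD79B.

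Whether the response to heat depended on breed was tested by the interaction. No member probe passed (0 of 18; 0% of all probes), the smallest adjusted p of the members was 0.926, and 1 member probe, CD79B, had an unadjusted p under 0.05 (0.0260). In F1 TN pigs CD79B was 8.91 at the lowest, 9.36 at the median and 10.62 at the highest, and 2 of these 6 arrays lay above 10.5. On the 5 F1 HS arrays it was 10.42, 10.93, 10.47, 11.02 and 10.43.

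All F1 HS arrays thus lay above 4 of the 6 F1 TN arrays, and the groups overlapped through the other two. On the 28 arrays of the other 5 groups CD79B ran from 8.77 to 10.69. Within F1, HS exceeded TN by 1.01 ± 0.35 log2 units (limma, unadjusted p = 0.00617, adjusted p = 0.803), a value that stayed between 0.87 and 1.21 when any array was left out. Within LW and CR the group means were 9.77 ± 0.52 and 9.67 ± 0.62, and 9.90 ± 0.53 and 9.63 ± 0.68, for TN and HS.

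CD79A encodes the partner of CD79B in the B-cell receptor. At O4144 in F1 TN it was 7.34 at the lowest, 7.82 at the median and 9.20 at the highest, and on the F1 HS arrays it was 7.90, 8.10, 7.01, 6.63 and 6.93. The groups overlapped, and 2 of the 5 F1 HS arrays lay above the F1 TN median. The within-F1 difference was -0.71 ± 0.33 at O4144 and -0.86 ± 0.33 at A_72_P070401, with unadjusted p of 0.0386 and 0.0145 and adjusted p of 0.865 and 0.848. Neither of these differences nor that of CD79B passed the adjustment over all probes (0% of all probes were called within F1), and they are given as values only. Within LW, NKG7 was 0.28 ± 0.10 lower in HS (unadjusted p = 0.00681, adjusted p = 0.642), and within CR no member probe had an unadjusted p under 0.05. For these within-breed fits, 0% of all probes were called within LW and 0% within CR.

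The breeds differed far more than the temperatures over the array as a whole. Between LW and CR, 6.65% of all probes passed an adjusted p of 0.05, and 1 of the 18 member probes did. This was NKG7, which was higher in LW by 0.27 ± 0.07 log2 units (limma, 11 against 11 arrays, adjusted p = 0.0135). A share of 1 in 18 is close to that of all probes.

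On LW TN arrays NKG7 read 7.43, 7.47, 6.91, 7.42 and 7.25, and in LW HS it was 6.88 at the lowest, 7.04 at the median and 7.15 at the highest. On CR TN arrays it read 6.79, 6.89, 6.67, 7.18 and 6.91, and in CR HS it was 6.79, 6.86 and 6.96 at the same points. The breeds overlapped, yet all 11 LW arrays lay above the CR mean of their own temperature, and 4 of the 5 LW TN arrays were the highest of the series. The call was kept with slide as a fixed block (0.27, adjusted p = 0.0112), with LW HS 3 left out or taken as Creole, and without any other single array (0.24 to 0.30). Without LW TN 2 and CR TN 1, a choice made after seeing the data, it was 0.23 (adjusted p = 0.0449). Of the other 11 cytotoxic genes of the list none was called in this comparison.

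The CD79A probes had larger but more variable differences, being 0.51 ± 0.25 and 0.53 ± 0.24 higher in LW than in CR and 0.52 ± 0.25 and 0.58 ± 0.24 higher in F1 than in CR. Unadjusted p ranged from 0.0212 to 0.0475 and adjusted p from 0.139 to 0.261, so none was called. At O4144 the CR arrays ran from 6.39 to 7.97 with a median of 7.12, the LW arrays from 6.41 to 8.10 with a median of 7.71, and the F1 arrays from 6.63 to 9.20 with a median of 7.71. The breeds overlapped over most of their range. F1 against LW and F1 against CR share the F1 arrays, and the LW and CR comparisons share theirs, so these differences are not separate evidence.

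Between F1 and LW, 1 of the 18 member probes passed (1.48% of all probes), and it was a PTPRC probe that lacked the repeat. At A_72_P442513 the F1 arrays ran from 5.72 to 6.14 with a median of 5.96 and the LW arrays from 5.84 to 6.66 with a median of 6.28. All 11 F1 arrays lay below the LW mean of their temperature, and 8 LW arrays lay above every F1 array. The fitted difference, F1 minus LW, was -0.33 ± 0.08 log2 units (limma, adjusted p = 0.0346). The probe was dim, with a mean of 6.11 over all arrays, near the 6.09 of CD3D A_72_P014531 in the values normalised here.

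This call sat near the threshold. It was lost, with adjusted p of 0.0534 to 0.0718, when any of LW TN 2, LW TN 3, LW HS 2, LW HS 3, LW HS 6, F1 TN 2, F1 TN 4 or F1 HS 1 was left out, with a difference of -0.33 to -0.29 in these 8 cases. Without LW TN 2 and CR TN 1 together it was -0.29 (adjusted p = 0.0591). It was also lost with the processed signal scaled to the 75th percentile (-0.52, adjusted p = 0.0639), with normexp background correction (-0.21, adjusted p = 0.0653) and with LW HS 3 taken as Creole (-0.31, adjusted p = 0.0665). With slide as a fixed block it was -0.34 (adjusted p = 0.0368). The second such PTPRC probe, O10712, differed by -0.24 ± 0.10 (unadjusted p = 0.0299, adjusted p = 0.287), again with all 11 F1 arrays below the LW mean. The repeat probe A_72_P186806 differed by -0.08 ± 0.11 (adjusted p = 0.822).

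CORO1A, which marks the same broad class of cells, was 0.23 ± 0.08 lower in F1 than in LW (unadjusted p = 0.0107, adjusted p = 0.176), with 10 of 11 F1 arrays below the LW mean. NKG7 was 0.25 ± 0.07 lower (adjusted p = 0.0561), again on 10 of 11 arrays, and passed with slide as a fixed block (adjusted p = 0.0415). CD3D at A_72_P014531 was 0.32 ± 0.13 lower (unadjusted p = 0.0195, adjusted p = 0.236). CXCR4, CD79A, GNLY and LYZ had differences of -0.12 to 0.05, each smaller than its standard error. CD3E was -0.15 ± 0.10 and -0.15 ± 0.08, and CD79B had the value of largest size, 0.40 ± 0.27 in the other direction (adjusted p = 0.551). Between F1 and CR no member probe was called (0 of 18, 6.86% of all probes, 3 with an unadjusted p under 0.05).

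**Figure D2:**
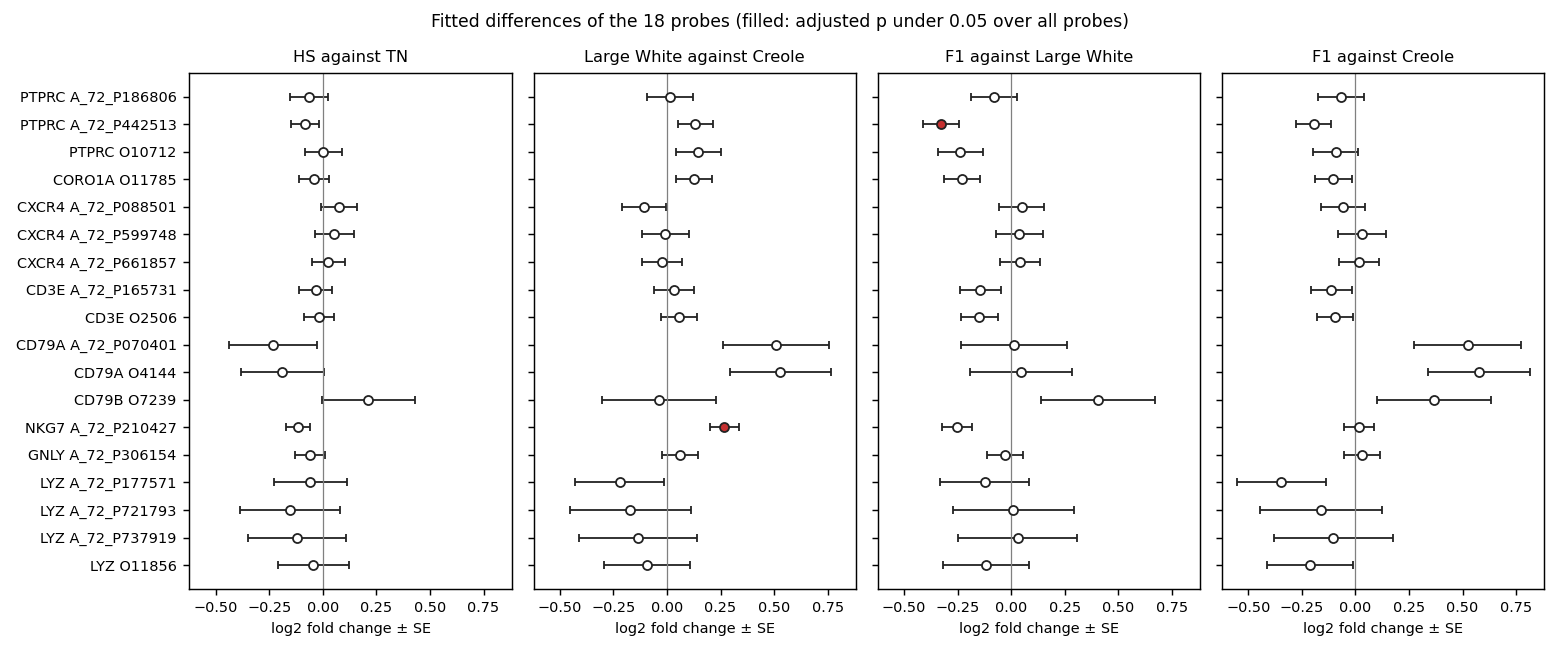
Fitted log2 fold change ± SE (horizontal axis) of the 18 member probes (vertical axis) for HS against TN, LW against CR, F1 against LW and F1 against CR, with filled points for an adjusted p under 0.05. NKG7 in LW against CR (0.27) and PTPRC A_72_P442513 in F1 against LW (-0.33) are the filled points.

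Other genes of the same broad class were lower in F1 than in LW as well. Of the 14 pan-leukocyte genes read at their brightest probe, 3 were called and all 3 were lower in F1, where 0.926% of all probes were called lower. These were ITGB2 (-0.55 ± 0.11, adjusted p = 0.00774), HCLS1, an adaptor of haematopoietic cells (-0.53 ± 0.10, adjusted p = 0.00475), and CD53, a leukocyte tetraspanin (-0.49 ± 0.12, adjusted p = 0.0304). HCLS1 ran from 8.53 to 8.87 on F1 arrays and from 8.81 to 9.85 on LW arrays, so that the ranges overlapped only at their ends. Negative values were found for 11 of the 14, with a median of -0.23 against 0.01 over all probes. Wherever this list is used, PTPRC is read at its repeat probe, its brightest (-0.08 here). The other PTPRC probes, at -0.33 and -0.24, do not enter these counts. The array LW TN 2, which had the lowest TSHB, was also the highest of the 33 arrays at 5 of the 18 member probes (PTPRC A_72_P442513 and O10712, CORO1A, NKG7 and CD3E O2506) and the lowest at all 3 CXCR4 probes. Without it ITGB2 and HCLS1 were called and CD53 was not, and the median of the 14 was -0.17. CD53 was also lost without any of LW TN 3, LW TN 4, F1 TN 2, F1 TN 5, F1 HS 1 or F1 HS 2 (largest adjusted p = 0.0607), whereas ITGB2 and HCLS1 were called without any single array.

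The 20 myeloid genes gave 3 calls, all lower in F1, namely the lysosomal protease CTSS (-0.48 ± 0.09, adjusted p = 0.00573), the macrophage growth factor receptor CSF1R (-0.42 ± 0.11, adjusted p = 0.0398) and the Fc receptor chain FCER1G (-0.49 ± 0.13, adjusted p = 0.0471). Without LW TN 2, CTSS alone was called and the median of the 20 moved from -0.16 to -0.13. Over all arrays left out in turn, CTSS kept its call, CSF1R lost it in 12 of 33 cases and FCER1G in 21. LYZ, the myeloid member, was not among them (0.03 ± 0.28 at its brightest probe). None of the 7 T-cell, 8 B-cell and 12 cytotoxic genes was called, with medians of 0.04, 0.05 and -0.11, and the smallest p belonged to CD3E, BLNK and NKG7. With group means subtracted, the T-cell genes CD5, CD247 and LCK had r of 0.91, 0.55 and 0.54 with the PTPRC repeat probe. Of the 7 T-cell genes 4 were positive with it (median 0.19). The B-cell genes CD72 and POU2AF1 had r of 0.68 and 0.46 with it, where 5 of 8 were positive (median 0.06). GZMB had r of 0.47, where 4 of 12 cytotoxic genes were positive (median -0.14). The medians of these lists therefore include probes that followed the repeat probe. Endothelial genes moved with the pan-leukocyte and myeloid calls. TEK (-0.72 ± 0.17, called at 2 of its 4 probes) and CDH5 (-0.47 ± 0.13) were called lower in F1, and 5 of 6 endothelial genes were negative. Without LW TN 2 neither was called, and with arrays left out in turn TEK lost its call in 7 of 33 cases and CDH5 in 25. Without LW TN 2 and CR TN 1 together, CD53, CSF1R and TEK were called (adjusted p = 0.0481, 0.0466 and 0.0487), and FCER1G and CDH5 were not (0.0775 and 0.0603). Leaving out arrays for these lists was chosen after seeing the data. The part of vessel content in the leukocyte values was not tested.

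**Figure D3:**
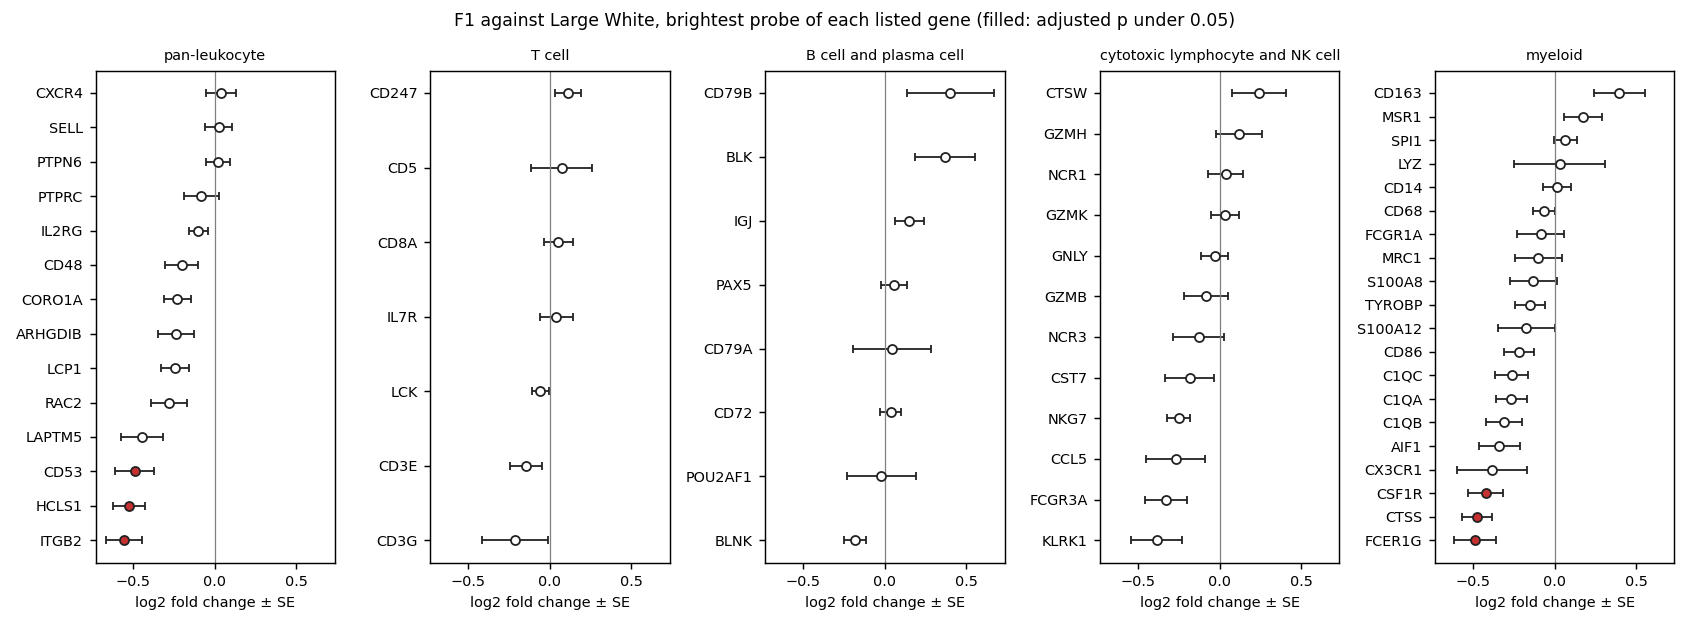
Log2 fold change ± SE (horizontal axis), F1 against LW, of the brightest probe of each gene (vertical axis) in the pan-leukocyte, T-cell, B-cell, cytotoxic and myeloid lists, with filled points for an adjusted p under 0.05. The 6 filled points, 3 pan-leukocyte and 3 myeloid, are all below 0, and the T-cell and B-cell genes lie on both sides of 0.

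Between LW and CR, 5 of the 61 genes of these 5 leukocyte lists were called (8.20%, against 6.65% of all probes), namely NKG7 and 4 others, and none was a pan-leukocyte or T-cell gene. FCER1G (0.43 ± 0.13) and the complement gene C1QA (0.39 ± 0.10) were higher in LW, and the B-lineage genes BLK, a kinase (-0.61 ± 0.18), and IGJ, the joining chain of secreted antibody (-0.49 ± 0.09), were lower in LW. C1QA was called at 1 of its 2 probes, and the other gave -0.08. Of the 6 endothelial genes, KDR (0.94 ± 0.14, at 1 of its 3 probes) and CDH5 (0.41 ± 0.13, at 1 of its 2) were also called higher in LW, and the part of vessel content in these values was not tested. IGJ was also lower in F1 than in CR (-0.34 ± 0.09, adjusted p = 0.0171).

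CXCL12 encodes the ligand of CXCR4. At its brightest probe it was 1.04 ± 0.21 log2 units higher in LW than in CR (adjusted p = 0.00175), with LW arrays from 12.20 to 13.93 and CR arrays from 11.36 to 13.16, and 2 of its 4 probes were called while another gave -0.17. CXCR4 itself had differences between LW and CR of -0.11 to -0.01 over its 3 probes, with standard errors of 0.09 to 0.11. VCAM1, which holds leukocytes at the vessel wall, was 0.38 ± 0.11 lower in LW at its brightest probe and -0.06 at its other one. In F1 against CR, where 6.86% of all probes were called, 4 of the 10 recruitment genes were called lower, CCL2, CXCL10, VCAM1 and ICAM1 (-0.68 ± 0.18, -0.99 ± 0.24, -0.70 ± 0.11 and -0.30 ± 0.09). Of the 61 genes of the leukocyte lists 4 were called lower, HCLS1, CSF1R, CTSS and IGJ, a share of 6.56%, which is close to that of all probes. Of the 6 endothelial genes 5 were negative in this comparison, with TEK called lower (-0.75 ± 0.17, at 2 of its 4 probes) and KDR called higher (0.59 ± 0.14, at 1 of its 3 probes). The part of vessel content in the values of F1 against CR was not tested.

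The members differed in how much they varied between animals of one group. The within-group SD of CD79B was 0.61, that of the CD79A probes 0.58, and that of the LYZ probes 0.51 to 0.73, larger than 97.2% to 99.3% of all probes. NKG7 had an SD of 0.15, larger than 24.7% of probes, and the PTPRC, CORO1A, CXCR4, CD3E and GNLY probes had SDs of 0.19 to 0.27. Between the lowest and the highest array the CD79A probes spanned 8.96-fold and 7.003-fold, CD79B 4.73-fold and the LYZ probes 3.57-fold to 7.77-fold.

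Lysozyme, the bacteriolytic enzyme encoded by LYZ, had within-group SDs that were not tested against each other. At A_72_P737919 the CR TN arrays read 8.68, 8.64, 8.30, 8.78 and 6.20, and in CR HS the lowest, median and highest were 6.66, 8.06 and 8.98. The SD of 1.09 in CR TN rested on CR TN 5, since the other 4 arrays had an SD of 0.21. It was 0.26 in F1 HS, where the arrays ran from 7.64 to 8.26, and 0.44 in LW HS, from 7.25 to 8.44. In LW TN it read 7.71, 7.95, 7.24, 9.01 and 7.95, and in F1 TN it was 7.37, 7.997 and 9.04 at those points. CR TN 5 was the lowest array of the series at all 4 LYZ probes. The 4 probes moved together over the 33 arrays with group means subtracted (r from 0.93 to 0.98), and 2 of them overlap in sequence.

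Both CD79A probes, which do not overlap, correlated at 0.96, so the spread between animals was read alike by separate sequences. The lowest array in LW TN was LW TN 2 (6.22 at A_72_P070401 and 6.41 at O4144) and the lowest in CR TN was CR TN 1 (5.998 and 6.39). These arrays also had the lowest TSHB. CD79B had a single member probe, but a probe that the array design lists only by a number followed it with r of 0.98 while sharing no run longer than 6 bases.

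Probes of CXCR4 correlated at 0.61 to 0.94 and the overlapping CD3E probes at 0.50. For PTPRC, the probes A_72_P442513 and O10712 correlated at 0.59, but the repeat probe A_72_P186806 correlated with them at -0.03 and -0.31. CORO1A had r of 0.49 and 0.64 with the first pair and -0.03 with the repeat probe. The named probes most like A_72_P186806 over the arrays were those of LUM, PRRT1, PRR14L, TMEM242 and MYLK, with r from 0.93 to 0.97. Of the 20 probes most like it, 18 held the motif GTGTGTGTGTGT on one strand, and its median r with the 94 other probes holding the motif was 0.72, against -0.05 with the 45512 probes lacking it. Its values followed those of other repeat-holding probes more closely than those of the other PTPRC probes.

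Slides separated the values of the same probe. With group means subtracted, slide means of A_72_P186806 ran from -0.30 to 0.26, and slides took up 71.5% of its within-group variation, more than for 98.5% of all probes, whose median was 20.1%. The corresponding shares were 3.43% and 14.0% for the other PTPRC probes. For GNLY the share was 54.2%, and for the CXCR4 probes it was 9.02% to 49.99%. It was 8.61% to 20.5% for the probes of CD3E, CD79A, CD79B, NKG7, CORO1A and LYZ.

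**Figure D4:**
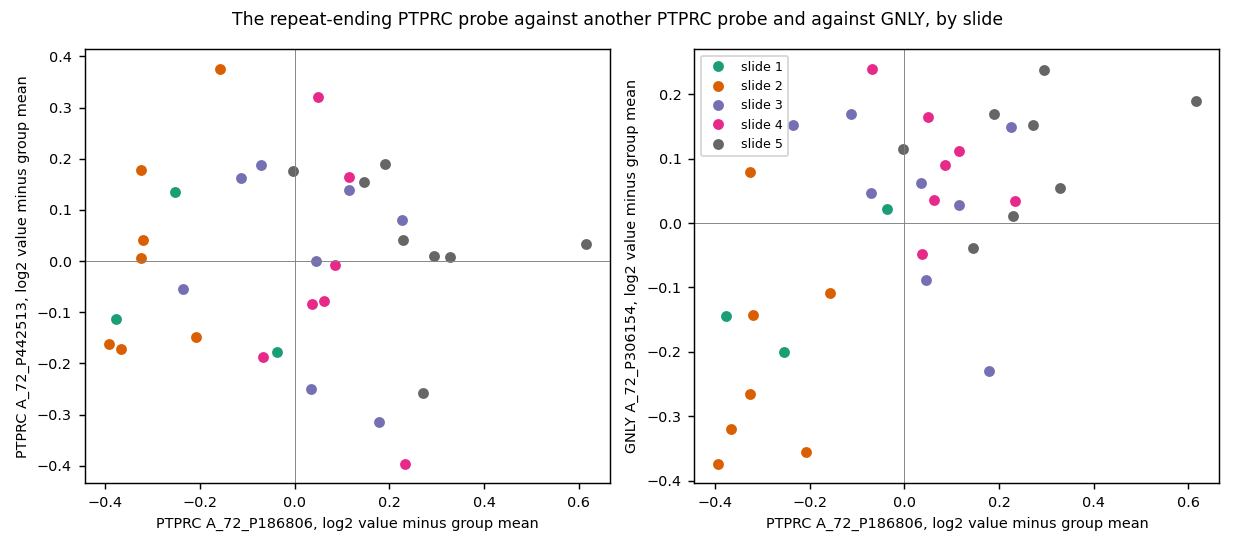
Log2 value minus the mean of its group of the repeat-ending PTPRC probe A_72_P186806 (horizontal axis) against PTPRC A_72_P442513 (left) and GNLY A_72_P306154 (right), 1 point per array, coloured by slide. The left panel shows no slope (r = -0.03), and in the right panel (r = 0.59) most arrays of slides 1 and 2 lie at the lower left.

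Whether B, T and myeloid markers varied together was asked over the 33 arrays after the mean of each breed-by-temperature group was subtracted, at the brightest probe of each gene. Of the 36 gene pairs, 1 passed an adjusted p of 0.05 (100000-resample permutation test, two-sided, Benjamini-Hochberg over 36 pairs). It joined PTPRC, at its repeat probe, with GNLY (Pearson r = 0.59, permutation p = 0.00031, adjusted p = 0.0112, Spearman rho = 0.495, permutation p = 0.004, adjusted p = 0.144). Without the 2 arrays farthest from the PTPRC median r was 0.52. With slide means also removed it was -0.19 (adjusted p = 0.492), so the relation did not hold within slides. With slide means removed another pair passed in its place, the repeat probe of PTPRC with CXCR4 (r = -0.55, adjusted p = 0.0425), which without that step had r of 0.25 (adjusted p = 0.560). With the other PTPRC probes in its place r was 0.25 for A_72_P442513 (adjusted p = 0.475) and -0.13 for O10712 (adjusted p = 0.677), and with slide means removed 0.39 and 0.28. With O10712 for PTPRC the pair that passed was PTPRC with CORO1A (r = 0.64, adjusted p = 0.0018), which at the repeat probe had r of -0.03.

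No pair of lineage markers passed. CD3E with CD79A had r of -0.05 (rho = -0.02, permutation p = 0.767, adjusted p = 0.818), CD3E with LYZ -0.27 (rho = -0.20, permutation p = 0.132, adjusted p = 0.528) and CD79A with LYZ -0.11 (rho = -0.10, permutation p = 0.543, adjusted p = 0.818). The receptor partners CD79A and CD79B had r of 0.12 (rho = 0.09, permutation p = 0.503, adjusted p = 0.818). With slide means removed these were -0.07, -0.28, -0.03 and 0.19. Over all probes of these genes, the 8 T-cell with myeloid probe pairs had r from -0.27 to -0.17, the 12 B-cell with myeloid pairs from -0.28 to 0.06, and the 6 T-cell with B-cell pairs from -0.05 to 0.31.

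Larger single values joined CORO1A with CXCR4 (r = -0.46, rho = -0.45, permutation p = 0.00686, adjusted p = 0.0937; -0.57 without the 2 farthest arrays, -0.43 within slides) and CD79B with NKG7 (r = -0.46, rho = -0.38, permutation p = 0.00781, adjusted p = 0.0937; -0.48 and -0.39). Both passed with the processed signal scaled to the 75th percentile (-0.53 and -0.54, adjusted p = 0.0117 for each), and CORO1A with CXCR4 also passed without F1 HS 1 (-0.54, adjusted p = 0.0239) and without CR TN 4 (-0.65, adjusted p = 0.0036). CXCR4 with GNLY had r of 0.42 (rho = 0.42, permutation p = 0.0162, adjusted p = 0.146), and -0.06 within slides. It passed with the processed signal (0.54, adjusted p = 0.0117) and with A_72_P599748 for CXCR4 (0.56, adjusted p = 0.0131). CD3E and NKG7, markers of T and cytotoxic cells, had r of 0.29 (rho = 0.35, permutation p = 0.108, adjusted p = 0.528). On the deposited values of all arrays, at the brightest probes, the adjusted p of these pairs missed the threshold. That does not show that the genes vary independently.

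**Figure D5:**
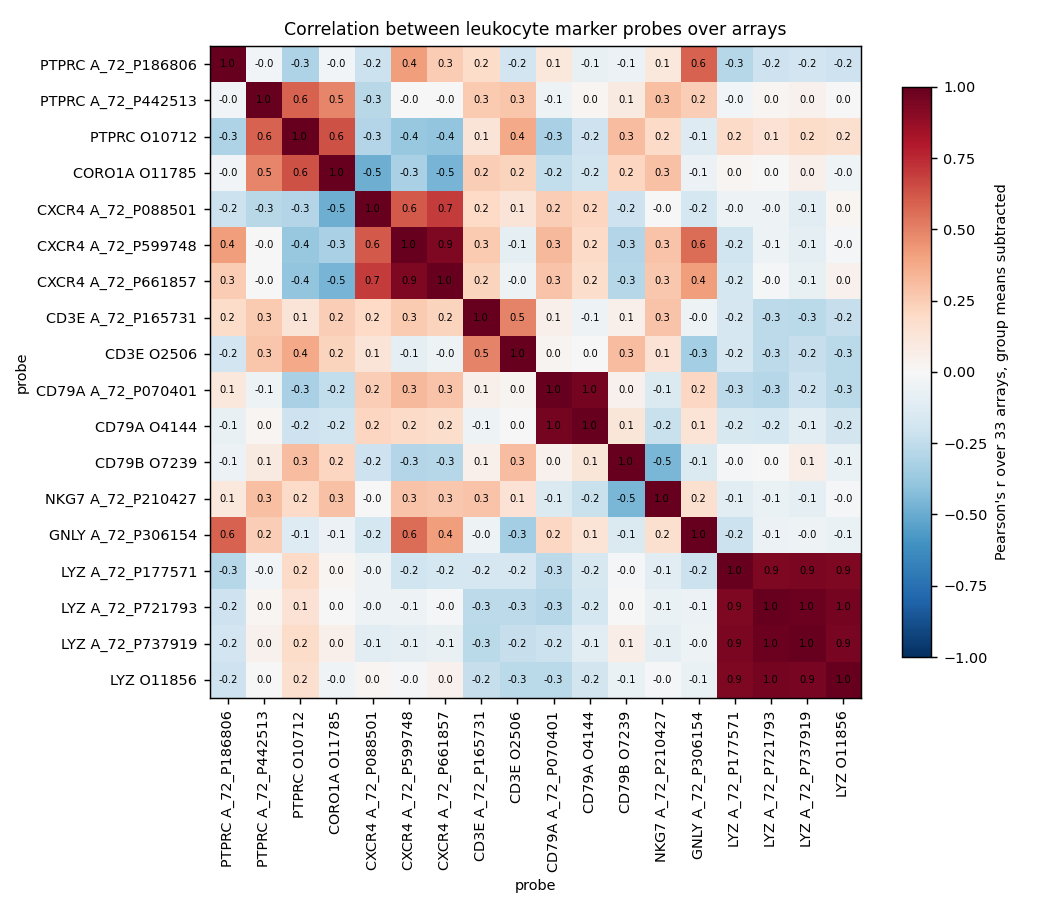
Pearson's r between the 18 member probes over 33 arrays with group means subtracted (colour and printed value, probes on both axes). Probes of LYZ form a block of 0.93 to 0.98 and those of CD79A reach 0.96, while the repeat probe of PTPRC is at -0.03 and -0.31 with the other PTPRC probes.

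Against the other genes of the lists, the members fell on different sides. The following r are descriptions over the 33 arrays, which share slides and tissue composition. PTPRC at O10712 was positively correlated with 20 of 20 myeloid genes (median 0.37, highest with CD86 at 0.69) and 11 of 13 pan-leukocyte genes (median 0.48), and CORO1A with 19 of 20 (median 0.36) and 9 of 13 (median 0.37). The called probe A_72_P442513 was positive with 15 of 20 (median 0.14) and 10 of 13 (median 0.22). Endothelial genes moved with these probes too, with 6 of 6 positive for O10712 (median 0.45) and for A_72_P442513 (median 0.31) and 5 of 6 for CORO1A (median 0.15), while 10 of 11 anterior pituitary genes were negative (medians -0.31, -0.27 and -0.35). Of 6 genes of the posterior and intermediate lobes, 5 were positive with O10712 (median 0.31), 6 with A_72_P442513 (0.30) and 6 with CORO1A (0.11). The part of tissue composition in these values was not tested. The 4 LYZ probes had medians of -0.05 to 0.00 with 19 other myeloid genes and -0.02 to 0.03 with 14 pan-leukocyte genes, and were positive with 5 or 6 of 6 endothelial genes (medians 0.17 to 0.21). NKG7 was positive with 13 of 14 pan-leukocyte (median 0.26), 9 of 11 other cytotoxic (0.21) and 18 of 20 myeloid genes (0.15). It was also positive with 6 of 6 endothelial genes (median 0.26) and with 2 of 11 anterior pituitary genes (median -0.14). CD79A was positive with 5 of 7 other B-cell genes (median 0.44 at A_72_P070401 and 0.23 at O4144), highest with POU2AF1, a B-cell coactivator (0.72 and 0.59). It correlated negatively with most pan-leukocyte genes (median -0.24 at O4144) and positively with 10 of 11 anterior pituitary genes (median 0.30 at O4144 and 0.43 at A_72_P070401). All 3 CXCR4 probes did so too with 10 of 11 of these genes (medians 0.39 to 0.44). Their medians were -0.19 to -0.03 with pan-leukocyte genes and -0.21 to -0.13 with myeloid genes. CD79B, unlike CD79A, was positive with only 2 of 7 other B-cell genes (median -0.05). The CD3E probes were each positive with 3 of 6 other T-cell genes (medians 0.05 and -0.01).

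These values rested in part on the arrays with the lowest TSHB. Without LW TN 2 and CR TN 1, the medians with anterior pituitary genes were 0.14 and 0.10 for CD79A O4144 and A_72_P070401, and 0.02 to 0.21 for CXCR4. The median of CD79A O4144 with pan-leukocyte genes was then -0.08. Those of PTPRC O10712 and CORO1A with pan-leukocyte genes were 0.35 and 0.30, and with myeloid genes 0.24 and 0.30. With endothelial genes they were 0.18 and -0.04, and with anterior pituitary genes -0.17 and -0.27. For the called probe A_72_P442513 they were 0.12 with pan-leukocyte, 0.06 with myeloid, 0.14 with endothelial and -0.21 with anterior pituitary genes. For CD79A with B-cell genes they were 0.20 at A_72_P070401 and 0.22 at O4144, and for CD79B 0.05. For CXCR4 they were 0.02 to 0.14 with pan-leukocyte genes and 0.003 to 0.11 with myeloid genes.

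Likeness of pattern was read over the 45607 probes that had no missing value and varied. The named probes nearest to CD3E (A_72_P165731) were OLR1, FAM177A1, SRPX2, TPBG and MKNK2 (r from 0.81 to 0.61). Those nearest to CD79B were ZFYVE27, SIRT7, E2F3, PRPF38B and DCT (0.59 to 0.56), those nearest to NKG7 were GAP43, ALDH1A3, FN1, STYXL1 and CADM1 (0.62 to 0.59), and those nearest to LYZ (A_72_P737919) were KIF4A, ACTR1A, SAMHD1, STEAP4 and SERPINH1 (0.64 to 0.58). None of these is a gene of the leukocyte lists, but at other probes of the members the 5 nearest included CST7 of the cytotoxic list for CD3E O2506 (0.64) and CD86 of the myeloid list for PTPRC O10712 (0.71 and 0.70 at 2 probes). The highest 1% of all r began at 0.39 to 0.45 for the 4 probes whose nearest genes are listed first, at 0.46 for CD3E O2506 and at 0.56 for PTPRC O10712.

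The NKL probe of GNLY had a median log2 value of 15.73 and was well above background on 33 of 33 arrays, whereas a second probe described as NK-lysin in the array design, which carries no gene symbol and so was not counted as a member, was well above background on 0 of 33. Whether the NKL probe measures GNLY was not settled by these files, so every value given for GNLY is that of this probe. The cytotoxic effector genes PRF1 and GZMA were well above background on at most 2 arrays. GZMB, GZMK, GZMH, CTSW, CST7, CCL5 and FCGR3A of the same list were so on 33 of 33. GNLY differed by 0.06 or less on the log2 scale in all 4 main comparisons, with standard errors of 0.07 to 0.08.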

How the data were processed

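RNA of 33 pituitaries was hybridised to 1-colour (Cy3) Agilent arrays. The authors extracted spot intensities with Agilent Feature Extraction 10.10.1.1, as given in the submitters' processing notes, and deposited log2 quantile-normalised values of 45667 probes, which were used for every result except CD3D and the detection calls. CD3D came from the deposited scanner intensity (median signal), log2 transformed and quantile normalised here. For the 45554 probes in both sets, the values differed from the deposited log2 values by a median of 0.00376 and at most 0.124. No array spot was saturated.

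Breed and temperature were fitted to all probes and arrays with limma 3.58.1 in R 4.3.3, with Benjamini-Hochberg adjustment over 45667 probes and a threshold of 0.05. The interaction and within-breed differences came from a model with 1 mean per group. Tested on simulated data for HS against TN, the fit called 88 of 100 probes changed by 0.5 log2 units and 99 of 100 changed by 1, with 6 false calls. The simulated noise was normal and independent between probes and arrays, without slide or litter effects. The changed probes were drawn from all probes, so these shares do not give the chance of calling a member. Correlations used values with group means subtracted, 100000 permutations (Python 3.11.15, scipy 1.17.1) and adjustment over 36 gene pairs. Pen, litter and slaughter day, which the methods modelled, are not in the labels and were not fitted. Replicate numbers follow accession order and pair nothing.

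Members and gene lists were chosen with earlier results of these data known. Named genes were all member probes, the list genes called in a comparison, otherwise the list's gene with the smallest p, and the 5 named probes most like the brightest probes of CD3E, CD79B, NKG7, LYZ and PTPRC. Genes of the lists outside this rule were named after their values were seen. Alternatives were other normalisations, a detection filter, slide as a block, array weights, LW HS 3 taken as Creole, other probes, and leaving out each array.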

Additional observations from a re-analysis of the deposited data

Results flagged for a closer look

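At the brightest probe of each of the 9 genes, 54 sets of values (6 groups of 5 or 6 arrays for each gene) were examined, and 4 held an array that stood apart from the rest of its group by Dixon's criterion, which chance alone meets in about 1 in 20 groups. LYZ A_72_P737919 read 6.20 on CR TN 5 and 8.30 to 8.78 on the other CR TN arrays. CD79A O4144 read 7.97 on CR HS 5 and 6.68 to 7.13 on the others of its group. GNLY A_72_P306154 read 15.38 on LW HS 1 against 15.76 to 15.92, and the repeat-ending PTPRC probe A_72_P186806 read 10.97 on F1 TN 1 against 11.29 to 11.44.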

How the results depend on the processing

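The counts of member probes called in HS against TN (0), LW against CR (1), F1 against CR (0) and the interaction (0) were unchanged under every alternative run and without any single array. In F1 against LW the count of 1 became 0 with the processed signal scaled to the 75th percentile, with normexp background correction and with LW HS 3 taken as Creole, and 2 with slide as a fixed block, with slide as a random block and with array weights, where NKG7 was also called. It ranged from 0 to 2 when single arrays were left out. It was 0 without LW TN 2 and CR TN 1, an alternative chosen after seeing the data. For PTPRC A_72_P442513 the difference was -0.52 (adjusted p = 0.0639) with the processed signal, -0.21 (0.0653) with normexp and -0.31 (0.0665) with LW HS 3 as Creole. The number of gene pairs past the threshold, 1, was 4 with the processed signal, 0 with A_72_P442513 for PTPRC, 2 with A_72_P599748 for CXCR4, and 1 to 2 without single arrays. With slide means removed and with O10712 for PTPRC the count stayed 1, but the pair was PTPRC with CXCR4 (r = -0.55, adjusted p = 0.0425) and PTPRC with CORO1A (0.64, 0.0018). The r of PTPRC with GNLY turned to -0.19 within slides and -0.13 with O10712, and was 0.25 with A_72_P442513. The causes of these changes were not tested. No paired analysis was possible because the replicate numbers only follow accession order. Signal over background limits CD3E and CD3D most, whose probes were not well above background on every array. The called PTPRC probe A_72_P442513 was well above background on all 33 arrays, but its mean (6.11) was close to that of CD3D A_72_P014531 (6.09).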
